A study of Saccharomyces cerevisiae with 9 samples.

Results

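The CCT chaperonin is a barrel of stacked rings in the cytosol that folds actin, tubulin and other proteins inside its cavity, using ATP. Each ring holds 8 related subunits, the products of TCP1 and CCT2 to CCT8, and each of these genes is essential in yeast. Prefoldin, a smaller complex, hands unfolded actin and tubulin to it. Within a ring CCT7, CCT5, CCT2, CCT4 and TCP1 stand side by side in this order. The strains described here are the 5 of these genes for which a tag value was present, TCP1 (YDR212W), CCT2 (YIL142W), CCT4 (YDL143W), CCT5 (YJR064W) and CCT7 (YJL111W), out of 5101 deletion strains with a value in the series. They were chosen by gene name, from the annotation of the tag probes. CCT3, CCT6 and CCT8 had no value on any array.

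Each yeast knockout strain carries 2 short DNA tags, and the abundance of a strain in a pooled culture was read from its tags on a 2-colour array. The series has 9 arrays, each setting a culture at the stated dose of sodium arsenite (Cy3) against a control culture without it (Cy5). Both were started from the same cells and grown at 30 °C. At a dose of 0 µM neither culture had arsenite. All strains derived from BY4743 and carried ura3delta0, leu2delta and his3delta1, with lys2delta0/LYS2, met15delta0/MET15 and can1delta::LEU2-MFA1pr-HIS3/CAN1 heterozygous in the diploid, and with kanMX in place of the tested gene. The heterozygous diploid pool, in which a strain keeps 1 intact copy of the tested gene, was grown for 10 generations in liquid YPD with 0 or 450 µM arsenite. Haploid MATa progeny of that pool were grown to confluence on selection plates with 0, 100, 200, 400, 800 or 1600 µM. The last pool also carried the pfd1::TEF1pr-URA3 disruption, and its haploid progeny were grown with 5 µM; here the control plates contained uracil and the arsenite plates did not. There was 1 array for each pool and dose and no replicate of any of them, so no difference between doses could be set against replicate spread. With so few arrays, the precision of each value is limited.

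A level below is log2 of arsenite over control for a strain, relative to the median strain of the same array. A negative level means a lower ratio of arsenite to control than that of the median strain. It does not tell slower growth from death. The direction of the deposited ratio is likely, not settled. With the sign used here the strain lacking ARR3, which exports arsenite, read -0.04 at 0 µM and -5.51 at 100 µM in haploids, the strain lacking FPS1, the channel through which arsenite enters, stood at 4.18 at 800 µM, and the uracil synthesis strains URA1, URA2, URA4 and URA5 lay between -5.23 and -3.98 on the array whose arsenite medium lacked uracil. With the sign turned, every loss below would read as a gain. Between 3713 and 8879 probes gave a value per array. The haploid 1600 µM array stood apart, with a deposited median of 2.99 against values from -0.09 to 0.12 on the other 8 arrays.

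The chaperonin strains were thinly covered. Of their 16 annotated probes (2 for each of 8 subunits), 7 gave a value on at least 1 array and 9 gave none. At 450 µM, CCT4 and CCT7 were read by both tags and TCP1, CCT2 and CCT5 by 1 tag. At 0 µM each of the 5 strains was read by 1 tag. Every difference between 450 and 0 µM in 1 and the same tag therefore rests on 1 tag per gene. The spread between the tags of a strain gives the error of such a difference, 0.30 on the log2 scale (SD for 1 tag, from 2455 strains with both tags on both arrays). No chaperonin strain was among these. The error covers the tags and not a repeat of the cultures.

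Losing 1 copy of a chaperonin gene went with a lower abundance in 450 µM arsenite for all 5 strains. Measured in the tag read on both arrays, the difference between 450 and 0 µM was -1.19 for TCP1, -1.17 for CCT4, -1.05 for CCT5, -0.82 for CCT7 and -0.71 for CCT2, each ± 0.30. Relative to the median strain, the arsenite-over-control ratio at 450 µM was 43.8% of that at 0 µM for TCP1 and 44.4% for CCT4. It was 48.3% for CCT5, 56.6% for CCT7 and 61.1% for CCT2. Spread evenly over the 10 generations, the differences amount to between -0.12 (TCP1) and -0.07 (CCT2) per generation on the log2 scale. All 5 strains lay at or below -0.5, where 10.6% of 4681 strains lay, and 3 of the 5 at or below -1, where 2.01% lay. The median of the 5 was -1.05, against -0.01 over all strains, whose central 95% ran from -0.91 to 0.78.

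**Figure D1:**
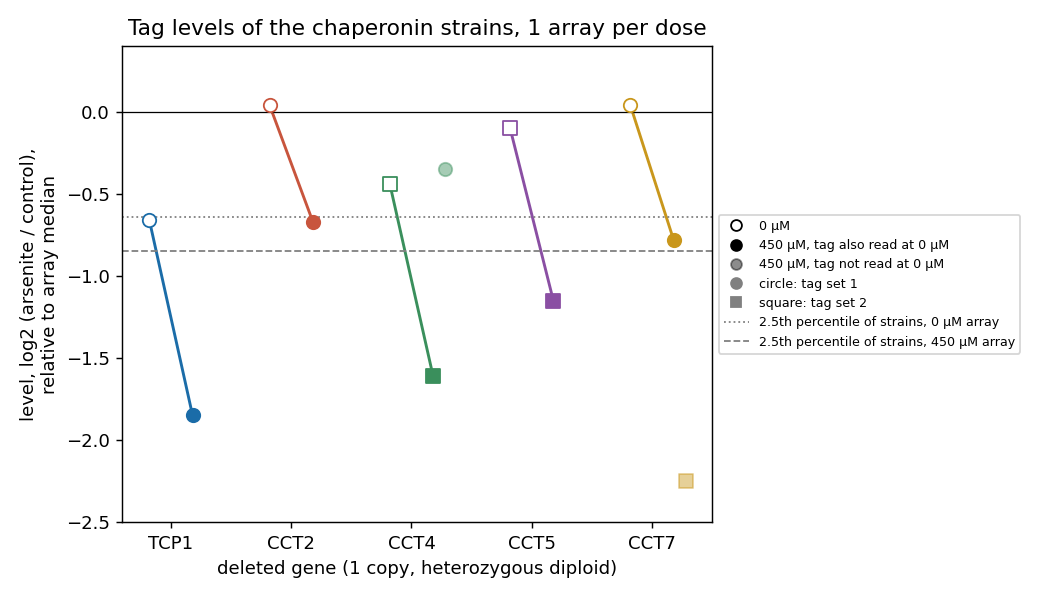
Level of each tag of the 5 chaperonin strains (y axis, log2 of arsenite over control, with the array median at 0) on the heterozygous 0 µM array (open) and 450 µM array (filled), with a line joining readings of the same tag. All 5 joined tags are lower at 450 µM, and the 2 pale points, for CCT4 at -0.35 and CCT7 at -2.25, are tags read at 450 µM only.

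TCP1 encodes the subunit that gave the family its first name. Its tag read -0.66 at 0 µM and -1.85 at 450 µM, rank 23 from the bottom of 4904 strains. It was the lowest chaperonin strain on both arrays, and at 0 µM it already lay just below the 2.5th percentile of that array (-0.64). The 0 µM array compares 2 cultures without arsenite. The error of a 1-tag level there was 0.37, and whether the low reading at 0 µM would recur was not tested.

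CCT4 is also called ANC2 and CCT2 BIN3, and mutations of both genes are known to disturb actin and microtubules. The CCT4 tag read on both arrays gave -0.44 at 0 µM and -1.61 at 450 µM. Its other tag was read at 450 µM only and gave -0.35 there. The tags of CCT4 thus differed by 1.26 on the same array, more than the 97.8th percentile of such gaps among 3002 strains with both tags. CCT2 read 0.04 at 0 µM and -0.67 at 450 µM, rank 202 of 4904, the highest of the 5 at 450 µM and inside the central 95% of that array, which began at -0.85.

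CCT5 and CCT7 are neighbours in the ring and, like the rest, bind ATP. CCT5 read -0.10 at 0 µM and -1.15 at 450 µM, rank 76 of 4904. CCT7 read 0.04 at 0 µM and -0.78 at 450 µM in the tag read on both arrays, and -2.25 at 450 µM in its other tag, the lowest reading of any chaperonin tag. That gap of 1.47 lay at the 98.6th percentile among the 3002 strains. Both strains with 2 readings at 450 µM were thus among those whose tags differed most, while the sign was negative in each of the 4 readings. A tag error pooled over other strains, and the intervals built from it, may be too small for CCT4 and CCT7.

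Averaging all tags of a strain before taking the difference, as was done for the series as a whole, moved CCT4 and CCT7 in opposite directions. By that rule CCT7 read -1.56 and CCT4 -0.54, each with an error of 0.44, because a tag entered the 450 µM mean that had no counterpart at 0 µM. TCP1, CCT5 and CCT2 were the same by either rule. The rank of CCT7 was 35 of 4684 strains by the mean of tags and 144 of 4681 by the tag read on both arrays, and that of CCT4 404 and 71. The same mixing of tags touched 563 of 4684 strains, or 12% of them. The counts were the same by both rules for the members, with 5 of 5 at or below -0.5 (10.2% of all strains) and 3 of 5 at or below -1 (1.96% of all strains), although CCT7 was 1 of the 3 by the mean of tags and CCT4 by the tag read on both arrays.

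The order of the 5 subunits did not stand out from the tag error. In the tag read on both arrays the widest of the 10 gaps, from TCP1 to CCT2, was 0.48 ± 0.42, with a 95% interval from -0.34 to 1.30, and 0 of 10 gaps had a 95% interval (tag error alone) that left out 0. By the mean of tags the widest gap, from CCT7 to CCT4, was 1.01 with an interval from -0.22 to 2.25, and again 0 of 10 intervals left out 0. These intervals do not show that the subunits responded alike, since a true gap of 1 between TCP1 and CCT2 lies within them. At 450 µM alone the levels by strain ran from -1.85 to -0.67 with a median of -1.15; 5 of 5 were at or below -0.5 (8.24% of strains) and 3 of 5 at or below -1 (1.90% of strains). At 0 µM alone they ran from -0.66 to 0.04, with 1 of 5 at or below -0.5 (5.71% of strains) and 0 of 5 at or below -1 (0.277% of strains).

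**Figure D2:**
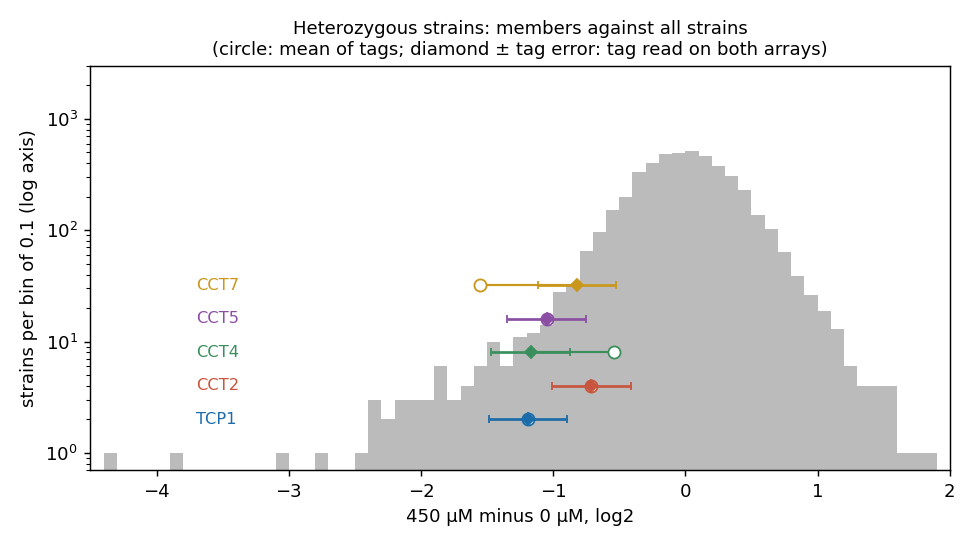
Number of heterozygous strains (y axis, log scale) by difference between 450 and 0 µM (x axis, log2, bins of 0.1), with each chaperonin strain placed at its own difference at an arbitrary height. Circles are means of tags and diamonds, with bars of 1 tag error (0.30), are the tag read on both arrays; the 2 differ for CCT4 (-0.54 and -1.17) and CCT7 (-1.56 and -0.82).

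Bringing the 2 heterozygous arrays to the same distribution by quantile normalization gave a median of -0.65 for the 5 strains and -0.58 for TCP1. It left 4 of the 5 at or below -0.5 and 1 at or below -1. Over all strains 446 and 64 were that low, against 477 and 92 of 4684 without it. Scaling by the median absolute deviation also left 4 at or below -0.5, where 467 of all strains lay. The strain that moved past -0.5 was CCT4, by the mean of tags, at -0.34 and -0.49. The cause of these shifts was not tested. All 5 differences stayed negative under each of the other scalings and centrings that gave a value for them.

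Strains deleted for genes next to the chaperonin genes read higher than the members in every case measured. This was asked because many strains on chromosome III were low in the same comparison, with 18.7% of 123 at or below -1. The 5 members lie on chromosomes IV (TCP1, CCT4), IX (CCT2) and X (CCT5, CCT7), where that share was 1.52%, 0% and 1.40%. Among the 10 genes on either side of each member, 84 strains had a difference. By the mean of tags, 5 of them were at or below -0.5, where 10.2% of all strains lay. At or below -1 there were 0, against 1.96% of all strains. By either rule 0 of them was as low as its member. Over all strains, the share as low as a member ran from 0.75% (CCT7) to 8.63% (CCT4) by the mean of tags. In the tag read on both arrays it ran from 1.43% (TCP1) to 4.53% (CCT2). With such shares, few strains as low would be found among any 84. The neighbours' median by mean of tags was -0.08 around TCP1, 0.08 around CCT2, 0.19 around CCT4, -0.22 around CCT5 and -0.08 around CCT7. By the mean of tags CCT4 stood closest to its neighbours' median (-0.73 from it), and in the tag read on both arrays CCT2 did (-0.61). The gene next to CCT2, SSL2, which encodes a helicase of transcription and repair, read -0.55, and the lowest neighbour, CSM2, read -0.63. With the neighbours' median subtracted, the 5 members had a median of -0.83. No annotated gene overlaps any of the 8 subunit genes.

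**Figure D3:**
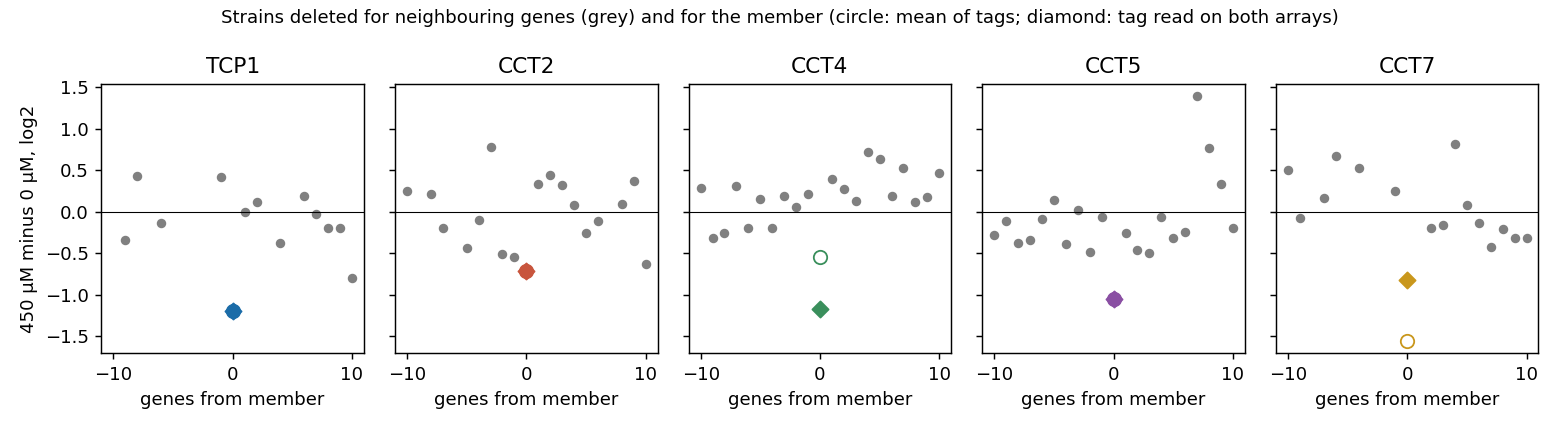
Difference between 450 and 0 µM (y axis, log2) for heterozygous strains deleted for the 10 genes on either side of each chaperonin gene (grey, mean of tags) and for the member itself, against position in gene order (x axis). None of the 84 grey points reaches its member, whether the member is shown by mean of tags (circle) or by the tag read on both arrays (diamond).

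Other genes of the folding pathway were read in the same heterozygous comparison. Of the 6 prefoldin genes 5 had a difference, with a median of -0.28 and 2 at or below -0.5 (10.2% of all strains, by the mean of tags). In the tags read on both arrays PAC10 gave -0.67, GIM4 -0.53, GIM3 -0.28, GIM5 -0.01 and PFD1 0.07. YKE2 was read at 450 µM only, at -0.40. In those tags each prefoldin difference lay above that of the highest chaperonin strain, CCT2 at -0.71. PAC10 and GIM4 rest on 1 tag with an error of 0.30, as CCT2 does. Neither stood further from CCT2 than that error. By the mean of tags they overlapped, with PAC10 at -0.71 below CCT4 at -0.54 and GIM4 at -0.53 beside it.

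Proteins that the chaperonin folds or binds in yeast showed both signs. Their median over 8 strains with a difference was 0.01, with 2 at or below -0.5 (10.2% of all strains, by the mean of tags). TUB3, the minor alpha-tubulin, gave -1.28 from 2 tags, and ACT1, actin, -0.62. The major tubulins TUB1 and TUB2 gave 0.36 and 0.00. CDC20 and CDH1, activators of the anaphase-promoting complex, gave 0.29 and 0.52, and HOS2 and SIF2, of a histone deacetylase complex, 0.01 and -0.28. CDC55 had no value. BUD27, a prefoldin-like protein, gave 0.74. The mitochondrial chaperonin, a separate folding machine of related structure, gave -0.31 for HSP60 and -0.18 for its lid HSP10, each from 2 tags.

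**Figure D4:**
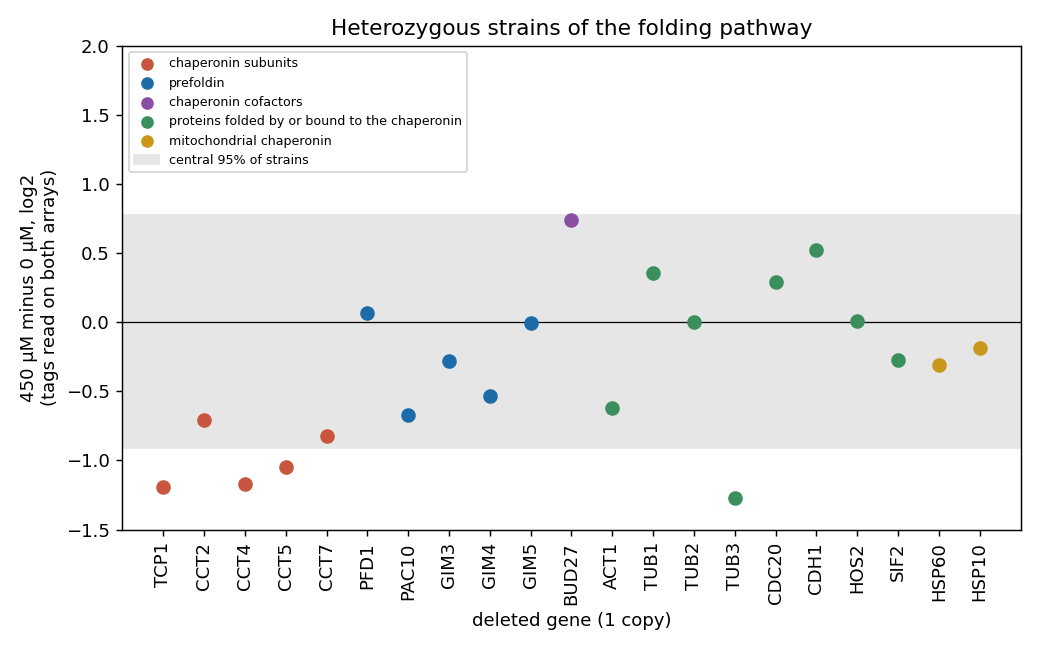
Difference between 450 and 0 µM (y axis, log2, tags read on both arrays) for heterozygous strains of the chaperonin, prefoldin, cofactors, client proteins and mitochondrial chaperonin (x axis). The grey band is the central 95% of all strains (-0.91 to 0.78); TCP1, CCT4, CCT5 and TUB3 lie below it.

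In the haploid pool 2 chaperonin strains had values, CCT2 and CCT5, each by 1 tag. These genes are essential, and it was not tested what a tag reading means in a pool whose haploids lack them. CCT5 read -0.21 at 0 µM, then -1.27, -0.86, -1.12 and -1.05 at 100, 200, 400 and 800 µM, and had no value at 1600 µM. Its 4 arsenite readings were all below the 0 µM reading, and the one at 100 µM was already the lowest. There it ranked 45 of 4089 strains, below the 2.5th percentile of -0.85, and 1.98% of strains were at or below -1. At 400 µM, where 9.17% were at or below -1, it ranked 328 of 4122, and at 800 µM, where 16.2% were, 614 of 3956. The tag error of a single level lay between 0.38 and 0.40 on these 5 arrays.

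CCT2 read 0.09, -0.20, -0.69, -0.61 and -0.34 from 0 to 800 µM. It lay inside the central 95% of strains at each of these doses. Its level of 2.74 at 1600 µM comes from a deposited ratio of 0.25 set against that array's median of 2.99, and in deposited terms, before centring, that reading is close to those of the lower doses.

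Neither strain passed the test for a slope with dose. A straight line over 0, 100, 200, 400 and 800 µM, taken as equal steps, was fitted to 3731 strains with limma, and 2.89% of them were called lower and 0.214% higher at a Benjamini-Hochberg adjusted p under 0.05. CCT2 had a slope of -0.13 ± 0.08 (SE) per step with a limma adjusted p of 0.352, and CCT5 of -0.15 ± 0.10 with a limma adjusted p of 0.376, so 0 of 2 were called. In a contrast chosen after seeing the data, the arsenite arrays from 100 to 800 µM were set together against the 0 µM array. CCT5 then differed by -0.86 ± 0.23 (SE; limma adjusted p = 0.99) and CCT2 by -0.55 ± 0.26 (limma adjusted p = 0.99). That contrast called 0 strains, while 36 strains were lower and 20 higher at a limma p under 0.05 before adjustment.

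Haploids without prefoldin read much lower at the same doses. At 100 µM the 6 prefoldin strains lay between -4.95 (PAC10) and -3.29 (GIM3). At 800 µM they lay between -6.60 (GIM4) and -3.51 (YKE2). The 4 prefoldin strains measured at all 5 doses had negative slopes, the steepest -1.43 (GIM4), that did not pass (limma adjusted p from 0.0655 to 0.125). Of the other genes of the pathway measured at all 5 doses, TUB3 had a slope of -1.46 ± 0.08 (limma adjusted p = 0.00169). It did not pass with the 1600 µM array (limma adjusted p = 0.46), after scaling by the median absolute deviation (0.111), with a trended and robust prior (0.0533) or against the 0 µM array alone (0.99), and passed without any 1 of the doses (0.00169 to 0.0291). BUD27 had one of -0.75, CDH1 of 0.20, HOS2 of 0.31 and SIF2 of 0.45, and none of these 4 passed (limma adjusted p from 0.0626 to 0.152). Prefoldin is not essential, so its haploids grow without arsenite, and its values are not on the same footing as those of CCT2 and CCT5.

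**Figure D5:**
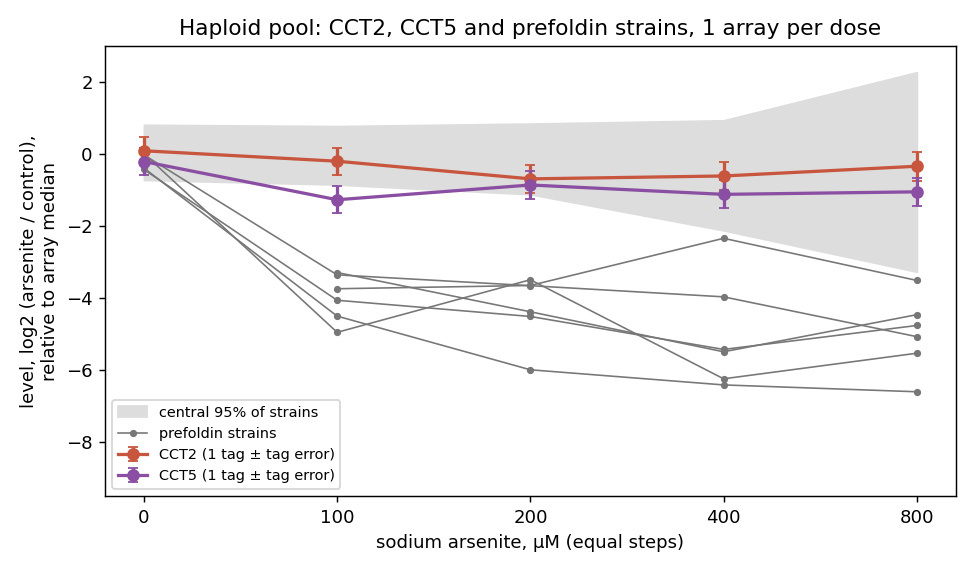
Level (y axis, log2 of arsenite over control, with the array median at 0) at 5 haploid doses (x axis, equal steps) for CCT2 and CCT5, each 1 tag with its tag error, and for the 6 prefoldin strains (grey lines). The band is the central 95% of strains on each array; CCT5 lies below it at 100 µM (-1.27) and inside it at the other doses, and the prefoldin strains lie below it from 100 µM on.

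In haploids that also lack PFD1, at 5 µM arsenite, the same tags lay on opposite sides of the median. CCT2 read -0.61 and CCT5 0.62, each with a tag error of 0.48. Both were inside the central 95% of strains on that array, which ran from -1.79 to 1.94, and 0 of 2 were at or below -1 (7.70% of strains). The missing uracil and the arsenite cannot be told apart on this array. TCP1, CCT4 and CCT7 had no value in any haploid pool.

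The strains whose levels were most like those of a member came from varied processes. Likeness was the root mean square difference, by the mean of tags, over every array on which the member had a value. Only strains with a value on all of those arrays were compared. For CCT5, over 8 arrays, the closest were PUN1 (0.32), ACS2 (0.35), an acetyl-CoA synthetase, and PET117 (0.37), an assembly factor of cytochrome oxidase. For CCT2, over 9 arrays, they were HFL1 (0.31), YIL089W (0.36) and TRP3 (0.38), of tryptophan synthesis. The other 3 members had values on the 2 heterozygous arrays alone, where likeness says little. There TCP1 was closest to HHT2, a histone H3 gene, GSP1, a Ran GTPase, and SWR1, a chromatin remodeller (0.12, 0.14 and 0.21). CCT4 was closest to RSM22, PET100 and PET117 (0.05, 0.06 and 0.08), and CCT7 to PHO87, DPB3 and SKA1 (0.10, 0.11 and 0.12). For CCT4 and CCT7 the mean at 450 µM, -0.98 and -1.515, includes a tag not read at 0 µM. Their tags read on both arrays gave -1.61 and -0.78 at 450 µM, and likeness in those tags was not tested. No chaperonin strain was among the 3 closest strains of another. For CCT2 this was fixed in advance, because no other chaperonin strain had a value on all 9 arrays. For CCT5 the only chaperonin candidate was CCT2.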

How the data were processed

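Tag abundance was measured in 9 array comparisons, 1 per pool and dose. The deposited values are log2 ratios of the 2 channels per tag probe; their log base, centring and direction, and the authors' scanner, normalization and filters, are not given in the labels or the table. Base 2 was assumed. Per the labels, asymmetric PCR with dye-labelled primers copied the tags out of genomic DNA. Of 22575 probes 9727 had a value, and 8765 of these carried 1 gene name from the platform annotation, updated through the gene table of assembly R64. The 2 probes of a strain lie in separate blocks of the table, called tag set 1 and tag set 2; which is UpTag or DnTag is not given.

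Signs were turned to arsenite over control, tags averaged per strain, and each array centred on its median strain. Correlations between arrays over strains were 0.02 or higher for all 36 pairs. Tag error is the SD of the difference between a strain's tags divided by the square root of 2. Slopes were fitted with limma 3.58.1 (R 4.3.3) over all strains. On simulated straight responses with normal scatter the fit recovered 93% of 100 strains with a slope of -1 and 77% of 100 with -0.5, with 17 false calls among 3531. Recovery of responses of another shape was not tested. In the real fit the 4 prefoldin strains, with slopes from -1.43 (GIM4) to -1.00 (PFD1), did not pass. The simulated shares therefore do not give the power for CCT2 and CCT5. The named genes are the 8 subunits, 4 lists of the folding pathway, the direction check and the 3 strains most like each member; members and lists were chosen with earlier results of these data known. The mean of tags was the planned main measure. The tag read on both arrays, a second measure, was put first after the shifts of CCT4 and CCT7 had been seen. The range of the 5 members was 0.48 in that tag and 1.015 by the mean of tags. Other alternatives were tag sets, centring, scaling, doses left out, the limma prior and the dose scale. No column was left unmapped (0), and no sequence is shown. A gene of the lists is not reported here.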

Additional observations from a re-analysis of the deposited data

How the results depend on the processing

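Values rest on 1 array per pool and dose and mostly on 1 tag, so neither culture nor array error could be measured. No paired analysis was possible because each pool and dose has 1 array. The median of the 5 chaperonin strains in the heterozygous comparison ran from -1.15 to -0.65 over the alternatives, and each member's difference was negative in all of them that gave it a value. Tag set 1 alone gave values for 3 members, -1.18 for TCP1, -0.81 for CCT7 and -0.70 for CCT2. Quantile normalization gave a median of -0.65 with 1 at or below -1, where 64 of all strains lay. For these the fewer tags, and for the last the redistribution of values, belong to the setting itself. Strains with 2 tags on both arrays included no member, and tag set 2 alone gave values for 2.

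In the haploid fit, neither CCT2 nor CCT5 passed under any alternative. CCT2 turned to 0.37 per step with the 1600 µM array, and CCT5 to 0.04 without the 0 µM array, 0.001 after scaling by the median absolute deviation and 0.0945 after quantile normalization. Leaving out 1 dose at a time gave slopes from -0.26 to -0.03 for CCT2 and from -0.23 to 0.04 for CCT5. Over all strains, against 108 lower and 8 higher, it gave 7 to 108 lower and 0 to 8 higher, fewest without the 100 µM array (7 and 0), then 400 µM (14 and 1), 800 µM (31 and 1) and 200 µM (55 and 1). The 1600 µM array, the trended and robust prior and the contrast with 0 µM gave 0 and 0, and dose on a linear scale 554 and 474. Tag set 2 gave 66 and 3. Strains called higher were 15 without centring, 49 after scaling and 52 after quantile normalization. Causes beyond the settings' own construction were not tested.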
